A study of Mus musculus with 12 samples.

Results

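A set of 10 acute phase protein genes were followed across 12 mouse livers: Saa1, Saa2, Saa3, Saa4, Orm1, Orm2, Hp, Hpx, Lcn2 and Apcs. They were picked by gene name among the non-control probes of the arrays, where 9 carried the symbol itself and Hpx was matched through its transcript accession because the array uses its older name. These 10 genes, read by 12 probes, are among the 27765 genes on the array, and all 10 were among the 18696 genes that could be tested. The livers came from male C57BL/6 mice aged 8 to 10 weeks, in 4 groups of 3 animals. Mice were wild type or carried the label HESKOL, and of each kind 3 were untreated and 3 given dexamethasone, a synthetic glucocorticoid, at 1 mg/kg into the peritoneum, and livers were taken 6 hours later. All mice, controls included, had been adrenalectomized, so their own glucocorticoid source was gone in every group. The labels do not spell out HESKOL, do not say in which cells or which part of a gene was altered, and describe no vehicle injection of untreated mice; Hes1, which encodes a repressor of transcription, and glucocorticoid signaling in liver are the subjects the title gives.

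The acute phase response is the change in secreted liver proteins that follows infection or injury. Hepatocytes raise the output of these proteins when interleukin-6, interleukin-1 and tumour necrosis factor reach them, through STAT3, NF-kB and the C/EBP family of transcription factors, and glucocorticoids are known to strengthen the response of many of these genes to the cytokines. The 10 proteins serve different ends: lipid transport (serum amyloid A), drug and steroid binding (orosomucoid), capture of free haemoglobin and heme (haptoglobin and hemopexin), withholding of iron from bacteria (lipocalin 2) and pattern recognition (serum amyloid P component).

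The promoters of 8 of the 10 genes were matched in the RefSeq-derived table of the GRCm38.p6 build; each window holds 300 bases around the gene's start, most of them before it. 5 are printed, because the first 4 belong to genes whose levels ran together over the mice and the last to the gene with the widest range. Capitals mark letters matching, on either strand, a C/EBP motif (TTNNGNAA), an NF-kB motif (3 G, any 5 bases, 2 C), a STAT motif (TTCNNNGAA), a palindromic glucocorticoid response element or a TATA box (TATAAA).
Saa1 promoter, chr7:46742931-46743230, minus strand: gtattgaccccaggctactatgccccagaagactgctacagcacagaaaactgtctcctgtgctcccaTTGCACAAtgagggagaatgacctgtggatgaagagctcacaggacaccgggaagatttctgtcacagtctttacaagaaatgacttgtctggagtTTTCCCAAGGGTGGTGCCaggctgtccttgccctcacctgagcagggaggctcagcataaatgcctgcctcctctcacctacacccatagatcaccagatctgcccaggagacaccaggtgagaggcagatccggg
Saa2 promoter, chr7:46751583-46751882, plus strand: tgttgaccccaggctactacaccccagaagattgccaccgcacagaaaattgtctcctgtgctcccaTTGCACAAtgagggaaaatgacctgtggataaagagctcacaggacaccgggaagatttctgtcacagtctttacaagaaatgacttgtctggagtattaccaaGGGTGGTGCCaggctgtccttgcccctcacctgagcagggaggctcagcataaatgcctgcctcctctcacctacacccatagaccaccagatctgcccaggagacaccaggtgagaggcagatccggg
Saa3 promoter, chr7:46715627-46715926, minus strand: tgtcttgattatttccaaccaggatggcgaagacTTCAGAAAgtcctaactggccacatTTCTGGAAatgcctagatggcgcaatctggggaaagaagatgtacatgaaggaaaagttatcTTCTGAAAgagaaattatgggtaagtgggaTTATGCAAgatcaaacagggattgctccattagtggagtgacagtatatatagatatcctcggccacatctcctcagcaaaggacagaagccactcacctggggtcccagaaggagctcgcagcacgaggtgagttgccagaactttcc
Orm2 promoter, chr4:63362199-63362498, plus strand: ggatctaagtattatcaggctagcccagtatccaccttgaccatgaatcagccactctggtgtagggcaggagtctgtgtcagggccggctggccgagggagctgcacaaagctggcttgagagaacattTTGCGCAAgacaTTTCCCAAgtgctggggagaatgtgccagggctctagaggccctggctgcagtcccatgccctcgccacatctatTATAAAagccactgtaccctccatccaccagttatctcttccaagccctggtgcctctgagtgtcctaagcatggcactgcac
Lcn2 promoter, chr2:32387690-32387989, minus strand: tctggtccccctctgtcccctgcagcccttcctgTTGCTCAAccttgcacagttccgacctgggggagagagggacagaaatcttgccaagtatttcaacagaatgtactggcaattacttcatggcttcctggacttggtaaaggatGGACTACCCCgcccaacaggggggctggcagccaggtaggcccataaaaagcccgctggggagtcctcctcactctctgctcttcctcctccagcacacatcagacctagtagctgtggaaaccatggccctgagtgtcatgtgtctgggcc
Saa1 and Saa2 lie close together on chromosome 7, on opposite strands, and their windows were identical at 287 of 299 aligned bases (96.0%). The other pairs of windows shown had between 53.2% and 61.2% identity. One match in the Saa1 window, the C/EBP letters TTTCCCAA starting at -86, runs directly into the NF-kB letters GGGTGGTGCC starting at -78; Saa2 carries the same NF-kB letters at -79 without that C/EBP match. Saa3 had 4 C/EBP matches. The C/EBP letters were found in 7 of the 8 windows against 40.7% of 32851 promoter windows, and the NF-kB letters in 4 of 8 against 50.8%. The STAT letters were found in 1 of 8 (Apcs) against 8.3%, the TATA box in 1 of 8 (Orm2) against 13.6%, and the glucocorticoid response element in 0 of 8 against 0.475%. These are matches of letters in a short window and say nothing of binding.

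Each gene's level rests on a probe of 60 bases, given here for the genes on which most of the results turn. Positions are those of the array's mm7 design, and exon annotation of that build was not used here.
Saa1 probe, chr7:42916901-42916960, minus strand: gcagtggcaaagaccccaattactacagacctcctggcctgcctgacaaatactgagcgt
Saa3 probe, chr7:42888862-42888921, minus strand: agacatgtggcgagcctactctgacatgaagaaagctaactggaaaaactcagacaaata
Lcn2 probe, chr2:32392828-32393072, minus strand: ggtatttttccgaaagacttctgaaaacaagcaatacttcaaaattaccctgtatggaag
The Lcn2 probe's 60 bases cover 245 bases of the genome in the design. Among all probe pairs of Saa1, Saa2 and Saa3, at most 21 of 60 bases matched in any ungapped alignment. That sets probes against each other and not against the transcripts of the other genes. It therefore cannot show whether a probe reads its own gene alone. The array lists a transcript of Saa1 beside that of Saa3 for the Saa3 probe, so the array's own annotation does not assign it to Saa3 alone. RefSeq lists Saa1 and Saa2 as older names of each other, and the accession of each probe was used to tell them apart.

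On every array between 61.5% and 71.9% of probes were well above background, and the 75th percentile of signal, used to scale each array, ran from 897 to 1614 units. All values are log2 signals relative to that percentile unless called unscaled, and all changes are log2 differences with their standard error (SE) from limma, with p-values adjusted by the Benjamini-Hochberg method over the 18696 genes and a threshold of 0.05. Arrays lay on 3 slides, and no slide held treated and untreated mice of the same genotype. The difference in Hes1, HESKOL minus wild type, averaged -1.11 (SE 0.30, limma adjusted p = 0.246), and the values of 2 treated wild-type arrays, -2.57 and -2.92, lay within the range of the HESKOL arrays; the altered part of the gene is not given, so the probe may not report on it. Tat, a classical glucocorticoid target of hepatocytes, rose by a mean of 1.44 (SE 0.20, limma adjusted p = 0.002895). The 6 hepatocyte markers were well above background on all 12 arrays. WT dex replicate 1 lay farthest from its group over all genes (root mean square deviation 0.994 against 0.463 to 0.798 for the other arrays). Without that array limma called 1117 genes for dexamethasone in wild-type liver, against 37 with it.

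**Figure D1:**
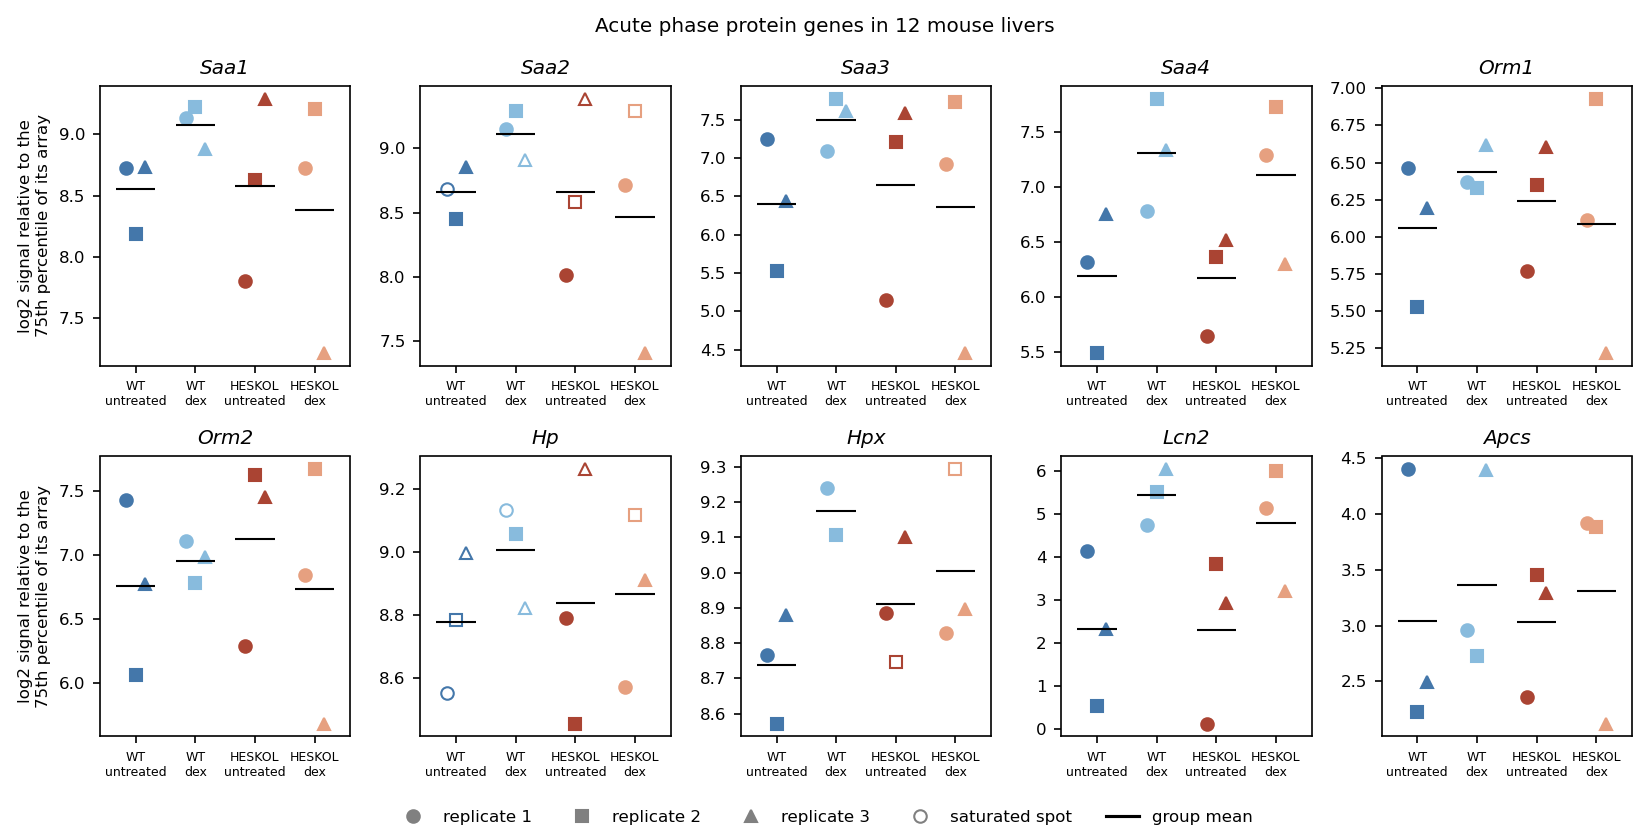
Levels of the 10 genes on the 12 arrays, as log2 signal relative to the 75th percentile of the array; each point is 1 mouse, its shape gives the replicate number, open points are saturated spots and lines are group means. The vertical axes differ between genes. Lcn2 spans 0.13 to 6.05, and HESKOL dex replicate 3 is the lowest array for Saa1, Saa2, Saa3, Orm1, Orm2 and Apcs.

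Lcn2, the siderophore-binding protein lipocalin 2, was the single gene of the 10 called in any comparison: it was higher after dexamethasone when both genotypes were averaged. In untreated wild-type liver its level was 4.15, 0.54 and 2.32, and in treated wild-type liver 4.76, 5.53 and 6.05. Every treated wild-type liver lay above every untreated one, although the highest untreated value came within reach of the lowest treated one. In HESKOL liver the level was 0.13, 3.85 and 2.94 without and 5.14, 6.02 and 3.22 with dexamethasone. These groups overlapped, because treated replicate 3 lay below untreated replicate 2. The mean was 2.34 ± 1.80 (SD, n = 3) in untreated and 5.45 ± 0.65 in treated wild-type liver, a change of 3.11 (SE 1.08, 8.64-fold), and 2.31 ± 1.94 and 4.79 ± 1.43 in HESKOL liver, a change of 2.49 (SE 1.08, 5.61-fold). Neither change passed on its own (limma adjusted p = 0.302 and 0.182). Averaged over genotypes the change was 2.80 (SE 0.76, limma adjusted p = 0.0380). Of all genes, 11.8% were called in that averaged comparison, against 1 of the 10.

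The averaged Lcn2 call was lost without any 1 of 8 arrays: WT untreated 2 or 3, WT dex 2 or 3, HESKOL untreated 1 or 3, and HESKOL dex 1 or 2 (limma adjusted p = 0.055 to 0.0881). With slide as a fixed block, a fit in which treatment and slide can hardly be told apart, the change was 0.02 (SE 1.46). Markers of neutrophils, which store lipocalin 2 in their granules, varied widely between the same mice. All 8 were tested and none was called by limma in any comparison of the groups; 8 of 8 were lower in treated than in untreated HESKOL liver, with a median change of -2.53. Their summed level, as signal over the array's 75th percentile, ran from 15.2 to 371 in untreated and 18.8 to 170 in treated wild-type liver, and from 9.64 to 281 and 2.33 to 38.4 in HESKOL liver. The highest neutrophil marker levels were in WT untreated replicate 1 and HESKOL untreated replicate 2 (median deviations of 4.08 and 3.90 from the mean of the arrays), which were also the highest Lcn2 values of their groups. The treated array with the highest Lcn2, WT dex replicate 3, had a median neutrophil marker deviation of -2.41. HESKOL dex replicate 3, with the lowest Lcn2 of the treated mice, had -4.06. The part of these cells in the Lcn2 levels was not tested. In whole liver, fewer cells of a type and less RNA per cell cannot be told apart.

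Saa4, the member of the serum amyloid A family regarded as constitutive, came next. Its level was 6.32, 5.49 and 6.76 in untreated and 6.79, 7.81 and 7.34 in treated wild-type liver. The wild-type groups did not overlap, by a narrow margin. In HESKOL liver it was 5.65, 6.37 and 6.52 without and 7.29, 7.73 and 6.30 with treatment, where replicate 3 again fell among the untreated values. The change was 1.12 (SE 0.44, limma adjusted p = 0.358) in wild-type and 0.93 (SE 0.44, limma adjusted p = 0.220) in HESKOL liver, and 1.03 (SE 0.31, limma adjusted p = 0.0556) on average, short of the threshold. The other Saa4 probe gave a smaller average change of 0.59 (SE 0.34, limma adjusted p = 0.285). On that probe the wild-type groups overlapped, with 6.04, 5.18 and 6.23 untreated and 5.59, 7.41 and 7.06 treated, and the treated HESKOL values, 6.39, 5.89 and 5.51, overlapped the untreated 5.07, 5.81 and 5.96.

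Saa3, the serum amyloid A made also outside hepatocytes in the mouse, including by macrophages, differed more between mice of a group than between groups. Untreated wild-type liver gave 7.25, 5.52 and 6.44 and treated wild-type liver 7.08, 7.77 and 7.61. Untreated HESKOL liver gave 5.15, 7.21 and 7.58, and treated HESKOL liver 6.92, 7.72 and 4.46. All 4 groups overlapped. The change with dexamethasone was 1.09 (SE 0.83, limma adjusted p = 0.655) in wild-type and -0.28 (SE 0.83, limma adjusted p = 0.866) in HESKOL liver. Between treated genotypes it was -1.12 (SE 0.83, limma adjusted p = 0.556), a value to which HESKOL dex replicate 3 contributed the lowest of the 12 levels.

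Saa1 and Saa2, the inducible apolipoproteins that ride on high-density lipoprotein, tracked each other closely from mouse to mouse. Saa1 was 8.73, 8.19 and 8.74 in untreated and 9.13, 9.22 and 8.88 in treated wild-type liver, and 7.81, 8.63 and 9.29 and then 8.72, 9.20 and 7.22 in untreated and treated HESKOL liver. The wild-type groups did not overlap, and the HESKOL groups did. Saa2 was 8.68, 8.45 and 8.86 and then 9.15, 9.29 and 8.91 in wild-type, and 8.01, 8.58 and 9.39 and then 8.71, 9.29 and 7.41 in HESKOL liver. The changes in wild-type liver were 0.53 (SE 0.48) for Saa1 and 0.45 (SE 0.45) for Saa2, and in HESKOL liver both were -0.19, with limma adjusted p from 0.719 to 0.842. The second Saa1 probe gave 0.65 (SE 0.61) and -0.31 (SE 0.61), the same directions. The Saa2 probe was saturated on 5 arrays, and the brightest Saa1 spot reached 99.0% of the saturation value; a saturated spot gives only a lower bound of its level.

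Orm1 and Orm2, the orosomucoid (alpha-1-acid glycoprotein) genes, showed no change past the threshold. Orm1 was 6.46, 5.53 and 6.19 and then 6.37, 6.32 and 6.62 in untreated and treated wild-type liver, and 5.77, 6.35 and 6.60 and then 6.12, 6.93 and 5.21 in HESKOL liver. The change was 0.38 (SE 0.41) in wild-type and -0.15 (SE 0.41) in HESKOL liver. Orm2 was 7.43, 6.06 and 6.78 and then 7.11, 6.78 and 6.98 in wild-type, and 6.29, 7.63 and 7.45 and then 6.85, 7.67 and 5.69 in HESKOL liver. Its changes were 0.20 and -0.39 (SE 0.52 for both). Apcs, serum amyloid P component, the pentraxin that is a main acute phase protein of mice, was 4.40, 2.22 and 2.49 and then 2.96, 2.72 and 4.39 in wild-type liver. In HESKOL liver it was 2.36, 3.45 and 3.29 and then 3.92, 3.88 and 2.12. The groups of all these 3 genes overlapped within each genotype, and the Apcs changes were 0.32 and 0.27 (SE 0.68 for both).

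Hp and Hpx, which bind free haemoglobin and free heme in plasma, had signals near the scanner's ceiling. The Hp spot was saturated on 7 of 12 arrays, including all 3 of untreated wild-type liver, so no fold against that group is given. Its unscaled signal ran from 478300 to 600550 units, a 1.26-fold range, while the scaled range was 1.75-fold. The scaled Hp level ran opposite to array brightness over the 12 arrays (Pearson's r = -0.950, against 0.39 unscaled). Hpx was saturated on 2 arrays and was left out as an outlier spot on WT dex replicate 3, so 11 values remained. Its changes were 0.43 (SE 0.23) in wild-type and 0.09 (SE 0.21) in HESKOL liver, and its scaled level likewise ran opposite to brightness (r = -0.788).

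**Figure D2:**
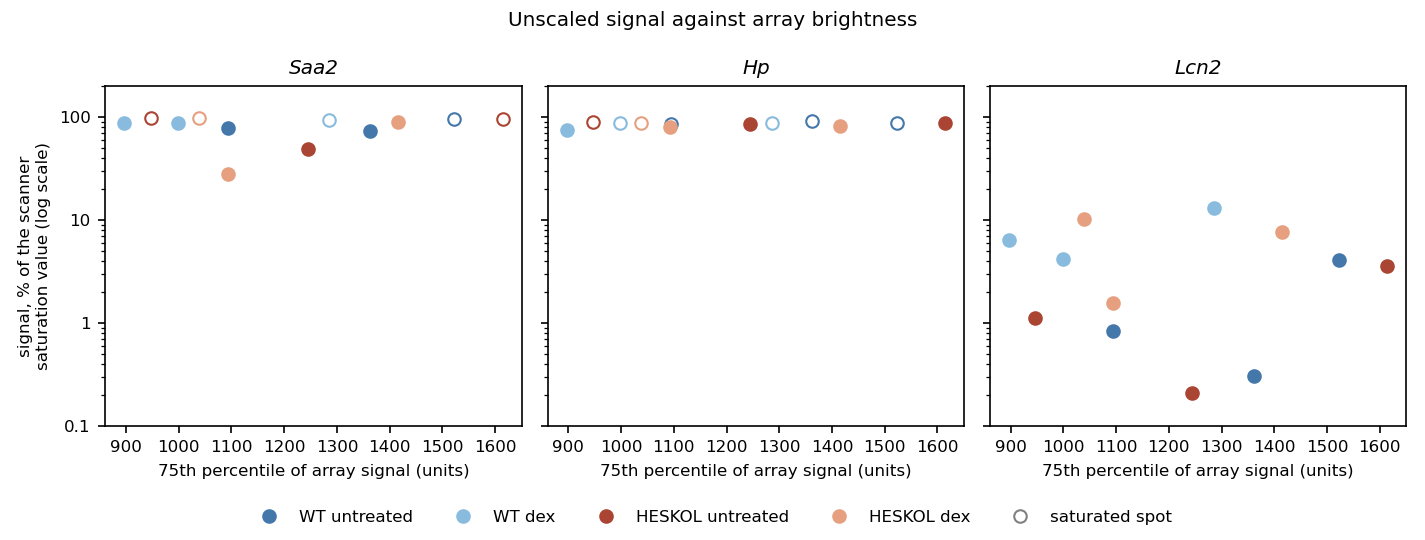
Unscaled signal of Saa2, Hp and Lcn2 as percent of the scanner's saturation value (vertical, log scale) against the 75th percentile of signal of the same array (horizontal, signal units); each point is 1 array, colours give the 4 groups and open points are saturated spots. Hp stays between 74.2% and 92.0% on all arrays, Saa2 reaches 98.5%, and Lcn2 runs from 0.209% to 12.9%.

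No gene of the 10 was called by limma in wild-type liver, where 0.198% of all genes were called and 2199 genes had an unadjusted p under 0.05, 2 of the 10 among them (Lcn2 and Saa4). In HESKOL liver none of the 10 was called either, against 7.81% of all genes, and 1 (Lcn2) had an unadjusted p under 0.05, as did 4603 of all genes. All 10 fitted changes were positive in wild-type liver, with a median of 0.44 against -0.02 over all genes. So were those of all 6 hepatocyte markers, with a median of 0.40. The sign for Hp is not a measured direction, since its untreated spots were all saturated and its unscaled mean was 577050 units without and 540700 with dexamethasone; the same holds for each count here that sets Hp against untreated wild-type liver. Under quantile normalization 8 of the 10 were positive and without scaling 6, where the median of all genes moved to -0.35. With slide as a fixed block 3 were positive. In HESKOL liver 5 were positive and 5 negative, with a median of -0.06. Without HESKOL dex replicate 3 all 10 were positive there, with a median of 0.36. The scaled values of treated and untreated wild-type liver did not overlap for 5 of the 10 (Saa1, Saa2, Saa4 on its brighter probe, Hpx on 2 treated arrays, and Lcn2), treated higher in each, against 6.12% of all genes. For Saa2 this does not show separate groups, because untreated replicate 1 was saturated and its value is a lower bound. In unscaled signal the groups did not overlap for Lcn2 alone. In HESKOL liver none of the 10 had every treated mouse above every untreated one, against 15.5% of all genes.

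**Figure D3:**
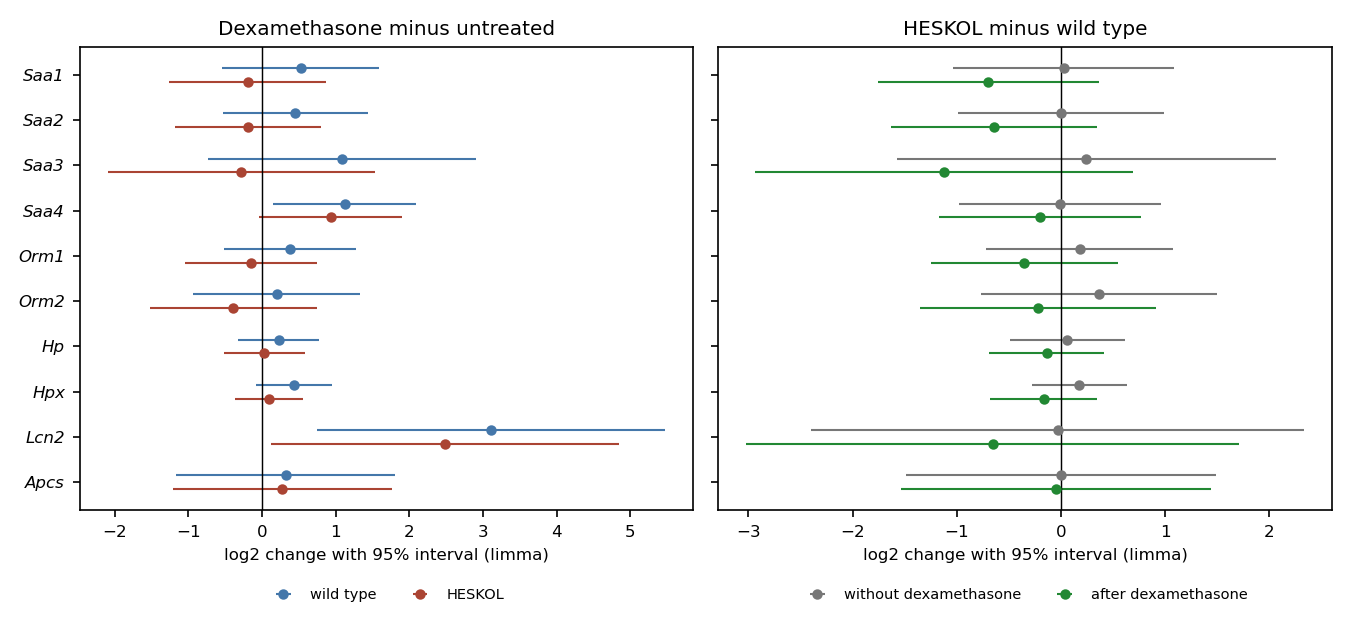
Log2 change of each gene with its 95% interval from limma. Left, dexamethasone minus untreated in wild-type (blue) and HESKOL liver (red); right, HESKOL minus wild type without (grey) and after dexamethasone (green). Intervals that exclude 0 are those of Lcn2 and Saa4 in wild-type and of Lcn2 in HESKOL liver, and none of these passed after adjustment over all genes. The Hp values set against untreated wild-type liver rest on saturated spots.

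Genotype alone called none of the 10. Without dexamethasone the median difference, HESKOL minus wild type, was 0.04, with values from -0.03 (Lcn2) to 0.37 (Orm2); limma called 0% of all genes there, 297 having an unadjusted p under 0.05. After dexamethasone all 10 differences were negative, with a median of -0.29 against 0.04 over all genes, with the largest for Saa3, then Saa1 (-0.70, SE 0.48), Lcn2 (-0.66, SE 1.08) and Saa2 (-0.65, SE 0.45). None was called, against 1.14% of all genes, and without HESKOL dex replicate 3 the median was -0.01 and 5 were positive. Under quantile normalization 1, under normexp background correction 2 and without scaling 3 of the 10 were positive. The difference of the dexamethasone effects between genotypes was negative for all 10 with a median of -0.56, again called for none, against 0.016% of all genes. Without HESKOL dex replicate 3 the median was -0.10. With slide as a fixed block it was 0.12 with 7 of the 10 positive, and without scaling 4 were positive. The 95% intervals of that difference were wide at -2.23 to 0.78 for Saa1 and -3.94 to 1.20 for Saa3. Averaged over treatment, the genotype difference was called for none of the 10, against 0.241% of all genes.

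Mice of the same group differed widely. The standard deviation within groups was 1.54 for Lcn2, above 99.0% of all genes, 1.17 for Saa3 (96.9%), 0.95 for Apcs (93.5%), 0.71 for Orm2 (84.9%) and 0.66 for Saa1 (82.0%), against a median of 0.39 for all genes. Only Hp (0.28) and Hpx (0.19), the near-saturated probes, lay below that median. The unscaled Lcn2 signal differed 62.5-fold and the Saa3 signal 10.5-fold between the lowest and the highest array. The low and high mice were largely shared in scaled values. HESKOL dex replicate 3 was lowest for 6 of the 10 genes, and HESKOL dex replicate 2 was above the mean for all 10. HESKOL untreated replicate 1 and WT untreated replicate 2 were below it for all 10, but their Hp deviations were only -0.08 and -0.09. The Hp spot of WT untreated replicate 2 was saturated, and its unscaled signal, 600550 units, was the highest of the 12 arrays. HESKOL untreated replicate 1 also lay close to the Hpx mean (-0.05). On HESKOL dex replicate 2 the Hp and Hpx spots were saturated too.

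**Figure D4:**
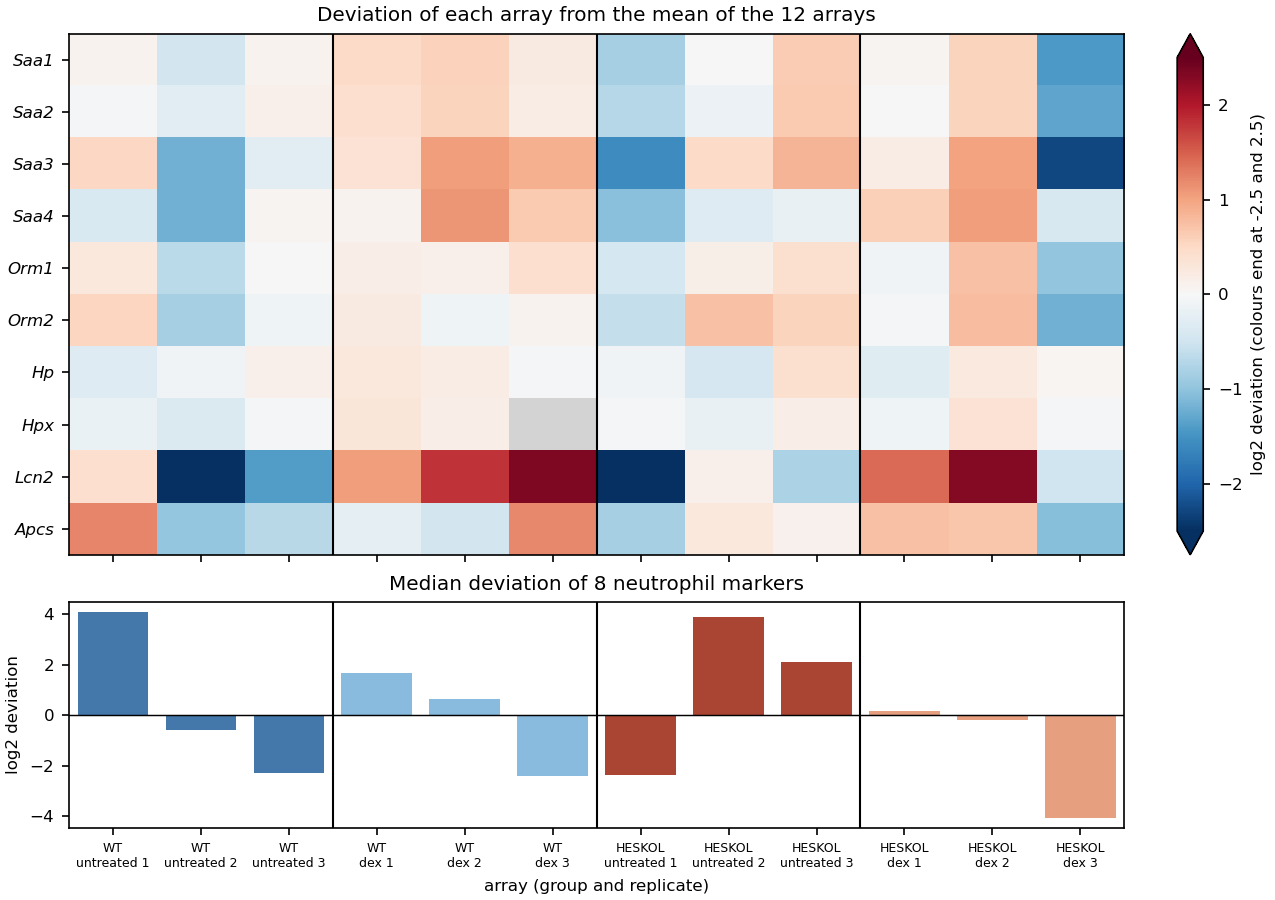
Top, log2 deviation of each gene (rows) on each array (columns, by group and replicate) from its mean over the arrays, blue low and red high, with grey for the Hpx spot left out. Bottom, median log2 deviation of 8 neutrophil markers on the same arrays. HESKOL dex replicate 3, at -4.06 in the bottom plot, is also low for most of the 10 genes. HESKOL untreated replicate 1 and WT untreated replicate 2 lie below the mean for all 10, but by little for Hp (-0.08 and -0.09). The Hp spot of WT untreated replicate 2 was saturated. HESKOL untreated replicate 1 also lies close to the Hpx mean (-0.05).

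Saa1, Saa2, Saa3, Orm1 and Orm2 rose and fell together from mouse to mouse, but the pattern was not particular to these 5. Orm1 with Apcs (r = 0.746) was as close as the weakest pair of the set. After group means were removed, r of Saa4 with the 5 ran from 0.741 (Orm2) to 0.859 (Saa3). For Lcn2 it ran from 0.638 (Saa2) to 0.914 (Orm2). Over the 10 pairs of these 5 genes Pearson's r ran from 0.744 to 0.990 over 12 arrays, and from 0.804 to 0.988 after each group's mean was removed. Without scaling it ran from 0.788 to 0.992. Of all 45 pairs of the 10 genes, 22 had an adjusted permutation p under 0.05 for r, the 10 pairs of the set among them. The 5 were grouped for running together on these same arrays, so their passing is no separate support. By Spearman's rho, Saa1 with Orm2 (adjusted permutation p = 0.0865) and Saa2 with Orm2 (0.0719) did not pass. The permutations ran over the arrays without regard to group or slide. Their p-values therefore do not test mouse-to-mouse variation apart from differences between groups. The closest pair was Saa1 with Saa2 (r = 0.990, Spearman's rho = 0.986, both with adjusted permutation p = 0.00045). Before adjustment both had the smallest p that 100000 permutations can give. The Saa2 spot was saturated on 5 arrays and Saa1 reached 99.0% of the saturation value, so the upper levels of this pair are limited. Whether the probe of either gene also reads RNA of the other was not tested. Leaving out the 2 arrays farthest from the Saa1 median left r at 0.963. For Saa3 with Orm1 the values were r = 0.936 and rho = 0.832 (adjusted permutation p = 0.00072 and 0.011), and 0.891 without the 2 farthest arrays. Weaker members of the set rested more on single mice: r for Saa2 with Orm2 fell from 0.744 to 0.388 without the 2 arrays farthest from the Saa2 median. The slide and array of a mouse are shared by all its genes.

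Across all arrays, with the differences between groups included, Lcn2 was closest to Saa4 (r = 0.894, rho = 0.846, adjusted permutation p = 0.001125 and 0.0108). Without the 2 farthest arrays r was 0.861. The permutations did not keep the groups apart, so these p-values also count differences between groups. Once group means were removed, r of Lcn2 with Saa4 was 0.768. It was higher with Orm2 (0.914), Saa3 (0.906), Orm1 (0.848) and Apcs (0.839). Among the other tested genes, the pattern over 12 arrays most like Lcn2 was that of Ifitm2 (r = 0.952), then St6gal2 (0.900) and Plod2 (0.892). Saa4 was most like Lrg1 (0.926), another secreted acute phase protein, then Tra2a (0.891) and Cpne7 (0.886). Saa3 was most like Itgb6 (0.956), Lin7b (0.912) and Cpb2 (0.885). These are the highest correlations found over all tested genes and carry no test.

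Other genes of the acute phase response put these values in context. No dexamethasone call below held with slide as a fixed block, where limma called 0 of all genes. The same was true of the difference of its effects between genotypes. Between treated genotypes 3 of all genes were called in that fit, against 213. Of 27 further positive acute phase proteins with a test, 3 rose with dexamethasone averaged over genotypes: Serpina3n, a serine protease inhibitor (1.92, SE 0.38, limma adjusted p = 0.0118), Lbp, which binds bacterial lipopolysaccharide (1.16, SE 0.25, limma adjusted p = 0.0177), and Il1rn, the interleukin-1 receptor antagonist (2.67, SE 0.69, limma adjusted p = 0.0324). The list's median was 0.21, and 11.8% of all genes were called in that comparison. In HESKOL liver, where 7.81% of all genes were called, 1 of the 27 rose, Serpina3n (3.99-fold, log2 SE 0.53, limma adjusted p = 0.0441). In wild-type liver 0 of 27 passed, with a median of 0.28 and 26 of 27 positive; A2m, a protease inhibitor, had the smallest p, with means of -7.11 and -1.68 in untreated and treated liver (limma adjusted p = 0.118), and was well above background on 1 of the 3 untreated arrays. Of 12 proteins whose output falls in the acute phase, 1 was called: Ttr, transthyretin, fell by 1.54 (SE 0.30, limma adjusted p = 0.0139) in HESKOL liver and by 0.75 (SE 0.21, limma adjusted p = 0.0428) on average. That stands against 7.81% and 11.8% of all genes called in these 2 comparisons. In wild-type liver Ttr changed by only 0.04 (SE 0.30, limma adjusted p = 0.977), so the averaged fall rests on HESKOL liver. Most of the 12 had positive changes: 11 in wild-type liver (median 0.18), 9 in HESKOL liver (median 0.09) and 10 on average (median 0.14).

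Among 16 cytokine and receptor genes, 3 fell and 1 rose with dexamethasone in HESKOL liver, against 7.81% of all genes called. Il1b, interleukin-1 beta, changed by -4.05 (SE 0.40, limma adjusted p = 0.001005) and Il10rb by -0.97 (SE 0.20, limma adjusted p = 0.018). Tnf, tumour necrosis factor, was at least 7.08-fold lower (limma adjusted p = 0.00229); it was not well above background on any treated HESKOL array, and the bound sets the untreated mean against the dimmest signal still well above background on every treated array. The 5 monocyte and macrophage markers were lower in the same comparison in 5 of 5 (median -1.57), with Lyz2 called at -1.70, and their summed level ran from 102 to 141 in untreated and 25.9 to 48.0 in treated HESKOL liver; their part in the cytokine values was not tested. Il1r1, the interleukin-1 receptor, rose there by 2.40 (SE 0.52, limma adjusted p = 0.0209). In wild-type liver none of the 16 passed; Tnf was at -2.09 (SE 0.48, limma adjusted p = 0.128), well above background on 2 of 3 treated arrays. After dexamethasone Il1b was also lower in HESKOL than in wild-type mice (-3.68, SE 0.40, limma adjusted p = 0.00287). Il1b was the one gene of these lists called for the difference of dexamethasone effects between genotypes (-4.57, SE 0.57, limma adjusted p = 0.0342). Of all genes 0.016% were called there, and none of the 10 acute phase genes was. Among 22 signalling genes and transcription factors, Cebpd rose in HESKOL liver (2.61, SE 0.42, limma adjusted p = 0.00674) and, with Cebpb (0.96, SE 0.20, limma adjusted p = 0.0137) and the NF-kB inhibitor Nfkbia (1.36, SE 0.34, limma adjusted p = 0.0293), on average over genotypes. These are 1 of 22 in HESKOL liver, against 7.81% of all genes called, and 3 of 22 on average, against 11.8%. After dexamethasone the cytokine signal inhibitors Socs1 (-5.32, SE 0.89, limma adjusted p = 0.0235) and Socs3 (-3.62, SE 0.75, limma adjusted p = 0.0496) were lower in HESKOL liver than in wild-type. They were 2 of the 22, against 1.14% of all genes called there. Of 11 receptors and partners of the 10 proteins, 1 rose in HESKOL liver, again against 7.81% of all genes called: Cd163, the macrophage receptor for haptoglobin bound to haemoglobin (1.38, SE 0.37, limma adjusted p = 0.0457). The values of Kupffer cell markers, from which Cd163 can also come, were lower there in 6 of 6 (median -0.90, 1 called).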

How the data were processed

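Liver RNA (500 ng, Cy3) was measured on one-colour arrays, 1 mouse each, and groups were read from the sample titles. The deposited values are intensity on a linear scale, extracted by the authors with Agilent Feature Extraction (version 9.5.3.1 per the file headers, 9.5 in the submitters' processing notes) after removal of background. The series table, also deposited, repeats these intensity values. Labels state no other normalization.

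From each log2 processed signal the array's 75th percentile (control spots left out) was subtracted. Outlier spots were dropped and saturated spots kept. Probes were named by accession where possible, and a gene took its probe of highest mean. A gene was tested if some group had it well above background on its 3 arrays (18696 of 27765 genes). Limma 3.58.1 in R 4.3.3 fitted the 4 group means to 12 arrays, with 8 residual and 3.13 prior degrees of freedom, 7 contrasts and Benjamini-Hochberg adjustment, after tests on simulated data. Precision is limited by having 3 arrays in a group. Correlations used 100000 permutations of the arrays, without regard to group or slide.

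The 10 genes and every gene list were chosen with earlier results of these data known. Each list is given by counts and at most 4 genes with the smallest p in the contrast described; likeness is given as the 3 most alike genes of those whose group means span over 1 log2 unit. Alternatives covered normalization (quantile, median, normexp, none), the filter, the choice of probe, slide or replicate number as blocks, trend with robust estimation, array weights, fits on the groups compared, and leaving out each array.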

Additional observations from a re-analysis of the deposited data

How the results depend on the processing

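No result reversed a called direction. The count of acute phase genes called for dexamethasone averaged over genotypes, 1 (Lcn2), became 0 with quantile normalization, with the deposited table without scaling, with no filter on dim probes, with slide as a fixed block and with the replicate block. It became 2, with Saa4, under median scaling, slide as a random block, the intensity trend with robust estimation, and array weights. Leaving out each array in turn gave 0 to 2 for this count and 0 to 0 for the other 6 comparisons. Array weights also called 2 in wild-type liver (Saa4 at 1.85, limma adjusted p = 0.0257; Lcn2 at 4.22, limma adjusted p = 0.0472) and 1 in HESKOL liver (Lcn2 at 3.56, limma adjusted p = 0.0397). Lcn2 averaged over genotypes stayed above 0 in all 24 alternatives run and was called in 11, with limma adjusted p from 0.0046 to 1.00; Saa4 was called in 6, including without WT dex replicate 1 (0.0276) and without HESKOL dex replicate 3 (0.0369). The causes were not tested. With slide as a fixed block limma called 0 of all genes for dexamethasone averaged over genotypes, against 2199. In that fit it also called 0 in wild-type liver, 0 in HESKOL liver and 0 for the difference of effects. Between treated genotypes it called 3, against 213. With array weights 5828 were called for dexamethasone averaged over genotypes. With array weights the calls of all genes were 1687 against 37 in wild-type and 4637 against 1461 in HESKOL liver, and normexp gave 699 in HESKOL liver.

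Deviations of same-numbered arrays from their group means correlated between -0.401 and 0.623. They were not set against arrays of unlike number, so whether replicate numbers pair the mice was not tested. With the replicate block Lcn2 averaged 2.80 (limma adjusted p = 0.0559). Saturation limits what Hp, Hpx and Saa2 can show, and 3 mice per group limit the rest.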
